A study of Mus musculus with 2 samples.

Results

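Granzyme B (Gzmb) and perforin (Prf1) are the 2 genes examined here, each through a fixed stretch of the mouse genome on build mm9: 190 kb on chromosome 14 from 56840000 to 57030000 for Gzmb and its flanking granzyme genes (the Gzmb locus), and 110 kb on chromosome 10 from 60700000 to 60810000 for Prf1 (the Prf1 locus). Their limits are positions and use no read count, though the loci were picked with earlier results of these data known. They hold 26 of the 86148 sites found genome-wide with antibodies to STAT5 or STAT3, 15 in the Gzmb locus and 11 in the Prf1 locus.

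The data are 2 chromatin immunoprecipitation sequencing libraries from wild-type C57BL/6J mouse T helper 17 (Th17) cells, 1 per antibody. Naive CD4 T cells of lymph nodes and spleen had been sorted and grown for 3 days on plate-bound CD3 and CD28 antibodies with 20 ng/ml IL-6 plus 2 ng/ml TGF-beta. Anti-IL-4 was present as well, and so, by the labels, was anti-IL-2 at 100 IU/ml; that unit normally measures the cytokine, so it is not settled here if IL-2 was added or blocked during culture. The STAT5 library came from cells then given IL-2 at 200 IU/ml for 30 minutes and was made with a mixture of STAT5A and STAT5B antibodies. The STAT3 library came from cells given IL-6 at 40 ng/ml for 30 minutes. Cytokine and antibody therefore differ together and cannot be told apart, and no input or IgG library was analysed here. No RNA was measured in these samples, so neither the expression of Gzmb and Prf1 nor the Th17 markers of the cells can be read from them.

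Granzyme B is a serine protease that enters target cells and starts their death by cleaving caspases and other substrates, and perforin is the pore-forming protein that lets granzymes in. Both are stored in the granules of cytotoxic T cells and natural killer cells, where IL-2, acting through its receptor, JAK kinases and STAT5, is known to raise their expression, for perforin in part through upstream enhancers. Th17 cells are known for IL-17 rather than for killing. STAT3 is activated by IL-6 and drives the Th17 programme, and both STATs bind as dimers to sequences of the form TTCNNNGAA.

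In RefSeq's annotation of GRCm38.p6, Gzmb is followed on one side by Gzmc, Gzmf, Gzmn, Gzmg, Gzmd and Gzme, further granzymes of the same cluster, and on the other by Atp12a and Rnf17. Prf1 lies between Adamts14 and Pald1. That build differs from the one of the reads and no gene positions on mm9 were used, so sites are given by mm9 position and are not assigned to a promoter, an intron or a particular granzyme gene. The promoters of both members are shown because they are the known start-site sequences of the genes to which the binding data refer. They run from 250 bases before the start of transcription to 50 after it, in the direction of the gene, from RefSeq's GRCm38.p6 (chr14:56262285-56262584, minus strand, and chr10:61297586-61297885, plus strand). Capitals mark a match to TTCNNNGAA, with 3 free bases in the middle, or to the same form with 4 free bases. Both forms read the same on either strand.
Gzmb: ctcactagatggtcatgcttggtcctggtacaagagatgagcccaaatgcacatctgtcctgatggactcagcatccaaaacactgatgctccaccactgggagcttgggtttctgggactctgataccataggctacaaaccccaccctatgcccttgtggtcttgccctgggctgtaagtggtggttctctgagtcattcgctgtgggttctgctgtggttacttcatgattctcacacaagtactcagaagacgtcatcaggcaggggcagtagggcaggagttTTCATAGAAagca
Prf1: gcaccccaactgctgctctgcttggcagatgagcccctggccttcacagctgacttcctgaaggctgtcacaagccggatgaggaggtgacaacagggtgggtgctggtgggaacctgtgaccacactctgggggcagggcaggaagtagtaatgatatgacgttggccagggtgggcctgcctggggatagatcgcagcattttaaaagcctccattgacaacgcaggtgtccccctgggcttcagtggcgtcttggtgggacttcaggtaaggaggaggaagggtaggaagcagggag

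The Gzmb promoter held 1 match to TTCNNNGAA, from base 38 to base 46 after the start, and none to the form with 4 free bases, while the Prf1 promoter held neither. Among all 32851 promoters of the same length, 8.30% held TTCNNNGAA and 6.95% held the form with 4 free bases, and a match describes the letters and not a bound site. Promoters of listed granzyme and related genes were also compared with each other for shared stretches of 25 bases, the length of a read. Gene bodies, sequence between genes and the rest of the genome were not compared. It is thus not known from this if reads of these loci have a single origin. All 276 of the 25-base stretches in the Gzmb promoter, and all 276 in that of Prf1, were absent from the promoters of the other listed granzyme, mast cell protease and related genes. In the promoters of Gzmc, Gzmd, Gzme, Gzmf and Gzmg between 15.2% and 40.6% of these stretches recurred in another gene of the list. In that of Gzmn, of the same cluster, 0% did.

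Every read was 25 bases long, and the libraries held 17963766 STAT5 and 20784388 STAT3 nuclear reads, each at its own position and strand. Reads were moved 50 bp towards the middle of their fragment, a fixed distance that was not fitted to the fragment length. They were counted in 200 bp windows placed every 50 bp, which can hold at most 400 reads. Levels are given as reads or as reads per 1000000 nuclear reads (RPM) in 200 bp. A region is a run of windows with at least 5 reads, at least 4-fold over the local and genome-wide means and an adjusted Poisson p of 1e-05 or below. Genome-wide, 1.5% of the windows with a STAT5 read and 0.862% of those with a STAT3 read met these limits. A site is 1 region or several overlapping ones, and its counts are taken in the 200 bp window with the highest RPM of either library. Intervals are exact 95% intervals that cover counting error only, and with 1 library per antibody no difference below has a replicate check.

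Both libraries had several regions in the Gzmb locus, and STAT5 had more reads there than STAT3. The locus held 14 STAT5 regions and 11 STAT3 regions, which is 7.37 and 5.79 per 100 kb, against 2.99 STAT5 and 2.41 STAT3 regions per 100 kb of genome, counted over 1 kb bins that held a read. In all, 3018 STAT5 reads and 2426 STAT3 reads fell in it (168 and 117 RPM), a ratio of STAT5 over STAT3 of 1.44 (interval 1.36 to 1.52). Stretches of 190 kb were laid end to end over the genome and kept if at least 50% of their 1 kb bins held a read. Of the 13169 kept, 88.5% held fewer STAT5 reads and 79.4% fewer STAT3 reads. Summed over the centres of its 15 sites the ratio was 2.09 (1.9 to 2.31), while single sites ran from 0.564 to 23.3. Outside the sites the locus had 1236 STAT5 and 1578 STAT3 reads. Their ratio was 0.906 (0.841 to 0.977) on the scale of all nuclear reads. Genome-wide, STAT5 also had fewer reads than STAT3 outside regions, 4.71 against 6.78 per kb. Scaling by reads of 10 kb bins that hold no region raises each ratio 1.38-fold, which puts the ratio outside the sites above 1. Sites covered 3.74% of the locus and held 59.0% of its STAT5 reads and 35% of its STAT3 reads.

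Reads did not reach every part of this locus. Of its 190 bins of 1 kb, 6 (3.16%) had no read of either library, against 11.6% of the bins of chromosome 14 and 8.59% of those of all chromosomes. The longest stretch without a read ran for 2780 bp from 56840847, at the edge of the locus. The sources used here do not say how reads with more than 1 possible origin were treated, so signal of a granzyme gene that shares sequence with another may be missing or misplaced. The Prf1 locus had a read in each of its 110 bins.

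Sites of the Gzmb locus, numbered 1 to 15 from low to high position, were concentrated in its middle. Sites 2 to 12 lay within 63.3 kb, 2.15 to 13.6 kb from one to the next, and had 1066 STAT5 and 558 STAT3 reads at their centres. Site 1 stood 21.7 kb before site 2, and site 13 lay 26.6 kb after site 12. Of the 15 sites 10 were regions with both antibodies, 4 with STAT5 only and 1 with STAT3 only. These classes follow the region calls of each library and not the ratio: site 9, one of the 4 with STAT5 only, had 12 STAT5 and 14 STAT3 reads. Against the genome-wide mean alone, without the local means, STAT3 regions were also called at site 9 (15 reads) and within site 3 (13 reads). A STAT5 region was then also called at site 10 (22 reads), so these classes depend on the local means. Genome-wide the classes made up 47.7%, 34.1% and 18.2% of the sites.

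**Figure D1:**
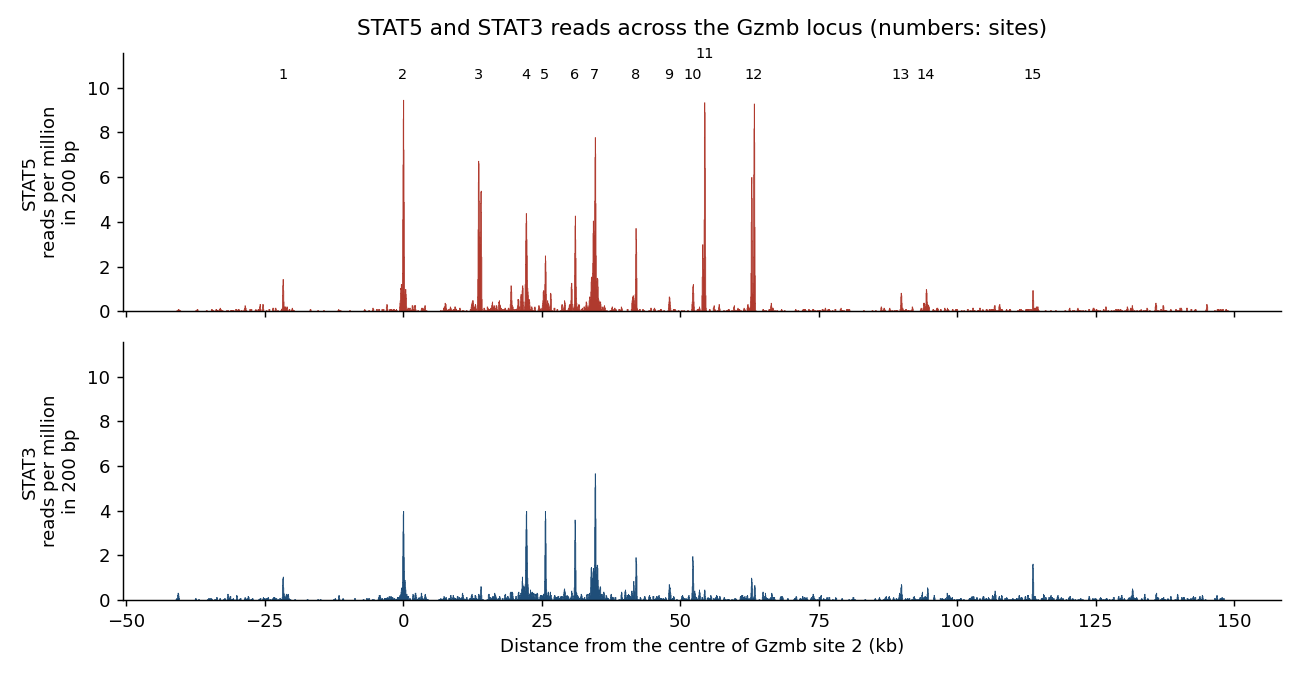
STAT5 (above) and STAT3 (below) RPM in 200 bp windows across the 190 kb Gzmb locus, against the distance in kb from the centre of site 2; numbers mark the 15 sites. Sites 3, 11 and 12 stand tall with STAT5, between 6.74 and 9.35 RPM, and low with STAT3, while sites 2, 4, 6 and 7 are tall with both.

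The tallest STAT5 site of the Gzmb locus was site 2, chr14:56880951-56881400. It had 170 STAT5 reads (9.46 RPM, interval 8.09 to 11) and 83 STAT3 reads (3.99 RPM, 3.18 to 4.95). The ratio was 2.37 (1.81 to 3.12), so STAT5 was the higher of the libraries here, by an interval that did not lie wholly beyond 2-fold. It had more STAT5 reads than 89.6% of all STAT5 regions and more STAT3 reads than 79.9% of all STAT3 regions, and so was tall with both. The maxima of both libraries were in the same 200 bp window.

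At 4 of the 15 sites (26.7%) STAT5 was more than 2-fold higher by the whole interval, and at none was STAT3. Under this rule STAT5 was higher at 27.7% of the sites of the genome, STAT3 at 3.18%, and 69.1% were not called, so the STAT5 share in the Gzmb locus is near the genome's. These 4 sites together had 474 STAT5 and 29 STAT3 reads, a ratio of 18.9 (13 to 28.6). The other 11 sites had 668 STAT5 and 602 STAT3 reads, a ratio of 1.28 (1.15 to 1.44). The ratio itself picked the 4 sites, so the contrast of these sums follows from the rule and tests nothing. Their intervals do not allow for that choice.

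Site 3, chr14:56894551-56895350, was 800 bp wide and held 121 STAT5 reads (6.74 RPM) and 6 STAT3 reads (0.289 RPM), a ratio of 23.3 (10.4 to 64.8). It had a further STAT5 maximum in the window from 56895101 to 56895300, with 97 STAT5 and 13 STAT3 reads. The lower stretch between the maxima, from 56894851 to 56895050, had 60 STAT5 and 4 STAT3 reads. Both STAT5 maxima of the site thus lay over few STAT3 reads, 6 and 13. The 6 STAT3 reads compare with a mean of 1.73 STAT3 reads per 200 bp outside the sites of the locus.

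Site 11, chr14:56935101-56935750, had 168 STAT5 reads (9.35 RPM) and 10 STAT3 reads (0.481 RPM), a ratio of 19.4 (10.3 to 41.3). A smaller maximum at its lower end, from 56935101 to 56935300, had 54 STAT5 and 2 STAT3 reads. Site 11 was nearly as tall with STAT5 as site 2, and no STAT3 region was called in it. Only 2.15 kb before it lay site 10, chr14:56933251-56933600, a region with STAT3 alone that had 20 STAT5 and 41 STAT3 reads (1.11 and 1.97 RPM), a ratio of 0.564 (0.313 to 0.986). Scaled by reads of 10 kb bins that hold no region, that ratio was 0.781 (0.433 to 1.36), an interval that includes 1. Against the genome-wide mean alone, without the local means, site 10 was a region with STAT5 as well (22 reads).

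Site 12, chr14:56943851-56944700, was the widest of the locus at 850 bp and had 167 STAT5 reads (9.30 RPM) and 11 STAT3 reads (0.529 RPM) at its centre, a ratio of 17.6 (9.57 to 35.9). A second STAT5 maximum within the site, from 56943951 to 56944150, had 108 STAT5 and 20 STAT3 reads. The site counts as a region with both antibodies through this second maximum, since the tallest STAT3 window, from 56943901 to 56944100 with 103 STAT5 and 21 STAT3 reads, started 50 bp from it. The tallest STAT5 and STAT3 windows of the site start 500 bp apart, since the site joins both STAT5 maxima. Of the 16 sites of both loci called with both antibodies, the other 15 had their tallest windows within 100 bp, against 93.2% of the 40888 sites genome-wide with 1 region of each library.

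Site 14, chr14:56975401-56975750, was the smallest of the STAT5-higher sites, with 18 STAT5 and 2 STAT3 reads and a ratio of 10.4 (2.49 to 92.5). Counting in 400 bp instead of 200 bp gave 4.05 (1.58 to 12.3), which is no longer wholly beyond 2-fold. Its STAT3 count was about the mean of 1.73 reads outside sites.

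Between the STAT5-higher sites lay a group of sites with similar levels of both libraries. Site 7, chr14:56915351-56916000, was the tallest STAT3 site of the locus, with 140 STAT5 and 118 STAT3 reads (7.79 and 5.68 RPM), a ratio of 1.37 (1.07 to 1.77). Site 4, chr14:56903101-56903600, had 79 STAT5 and 80 STAT3 reads (4.40 and 3.85 RPM), a ratio of 1.14 (0.827 to 1.58). Site 6, chr14:56912001-56912350, had 77 STAT5 and 72 STAT3 reads (4.29 and 3.46 RPM), a ratio of 1.24 (0.886 to 1.73). The intervals of sites 4 and 6 included 1, so neither library was higher there beyond counting error on this scale. Scaled by the bins without a region, the ratios were 1.58 (1.14 to 2.18) at site 4 and 1.71 (1.23 to 2.39) at site 6, and both intervals then lay above 1.

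Site 5, chr14:56906601-56907000, ran the other way, with 45 STAT5 and 83 STAT3 reads (2.51 and 3.99 RPM) and a ratio of 0.627 (0.426 to 0.912). Site 8, chr14:56922951-56923400, had 67 STAT5 and 40 STAT3 reads (3.73 and 1.92 RPM), a ratio of 1.94 (1.29 to 2.94). Both intervals lay to 1 side of 1 without lying wholly beyond 2-fold, so within 16.4 kb the libraries leaned in opposite directions at these sites. Scaled by those bins, site 5 had a ratio of 0.868 (0.59 to 1.26), and its interval then included 1. The height order also differed between the libraries: by STAT5 reads sites 2, 11, 12, 7 and 3 led, and by STAT3 reads sites 7, 2, 5, 4 and 6. Sites 2, 11 and 12, with 170, 168 and 167 STAT5 reads, had overlapping intervals of their STAT5 level, and so did sites 2, 5 and 4, with 83, 83 and 80 STAT3 reads, of their STAT3 level.

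The remaining sites of the Gzmb locus were low in both libraries. Site 1, chr14:56859301-56859650, had 26 STAT5 and 22 STAT3 reads, and site 15, chr14:56994601-56995000, had 17 and 34, a ratio of 0.579 (0.303 to 1.06). Site 13, chr14:56970901-56971200, had 15 STAT5 and 15 STAT3 reads. Site 9, chr14:56929051-56929300, had 12 STAT5 and 14 STAT3 reads. All 4 intervals included 1.

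**Figure D2:**
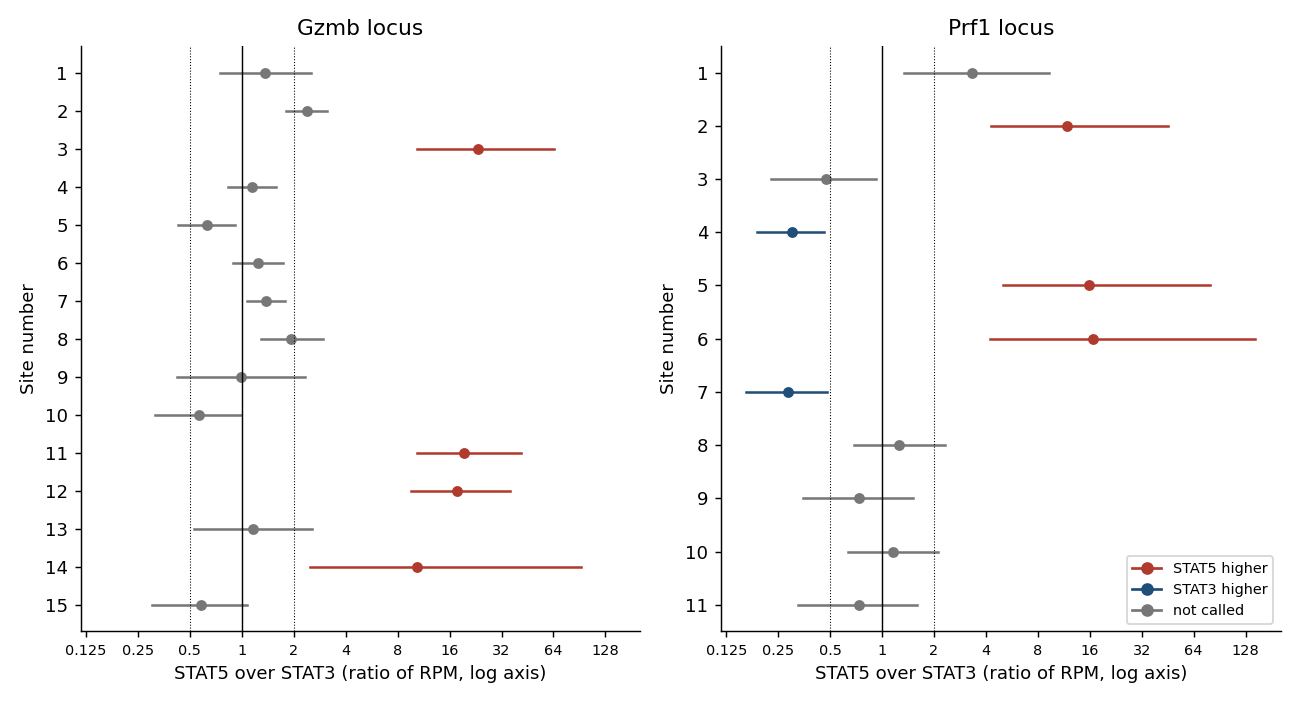
Ratio of STAT5 RPM over STAT3 RPM (points, log axis) with exact 95% intervals (lines) at each site of the Gzmb locus (left) and the Prf1 locus (right); dotted lines mark 2-fold either way. Of the Gzmb sites 4 lie wholly beyond 2-fold towards STAT5 and none towards STAT3, and of the Prf1 sites 3 lie beyond it towards STAT5 and 2 towards STAT3.

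The Prf1 locus had lower STAT5 sites than the Gzmb locus, with at most 41 reads at a site centre against 170, and its highest level was reached by STAT3 and not by STAT5. With STAT3 its tallest site had 104 reads (5.00 RPM, 4.09 to 6.06) against 118 (5.68 RPM, 4.70 to 6.80) at the tallest of the Gzmb locus, and these intervals overlapped. The Prf1 locus held 10 STAT5 regions and 7 STAT3 regions, or 9.09 and 6.36 per 100 kb, in 11 sites numbered from low to high position. A minimum of 8-fold over the means instead of 4-fold left 6 STAT5 and 3 STAT3 regions. In all, 800 STAT5 reads and 1252 STAT3 reads fell in it (44.5 and 60.2 RPM), a ratio of 0.739 (0.676 to 0.809). Of 22722 stretches of 110 kb over the genome, kept by the same rule as those of 190 kb, 69.5% held fewer STAT5 reads and 76.4% fewer STAT3 reads. Scaling by background, the reads of 10 kb bins that hold no region, raises every STAT5 over STAT3 ratio 1.38-fold and gave 1.023 (0.935 to 1.12) for the whole locus, so which library was higher over the locus depends on the scaling. Counted at the centres of its 11 sites, the ratio was 0.968 (0.819 to 1.14) from 266 STAT5 and 318 STAT3 reads.

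Of the 11 Prf1 sites 6 were regions with both antibodies, 4 with STAT5 only and 1 with STAT3 only. STAT5 was higher at 3 (27.3%) and STAT3 at 2 (18.2%), against 27.7% and 3.18% of sites genome-wide. The STAT5 share is again near that of the genome. The 2 STAT3-higher calls are few, and both are lost under the background scaling, at 0.416 (0.262 to 0.640) for site 4 and 0.395 (0.226 to 0.659) for site 7.

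**Figure D3:**
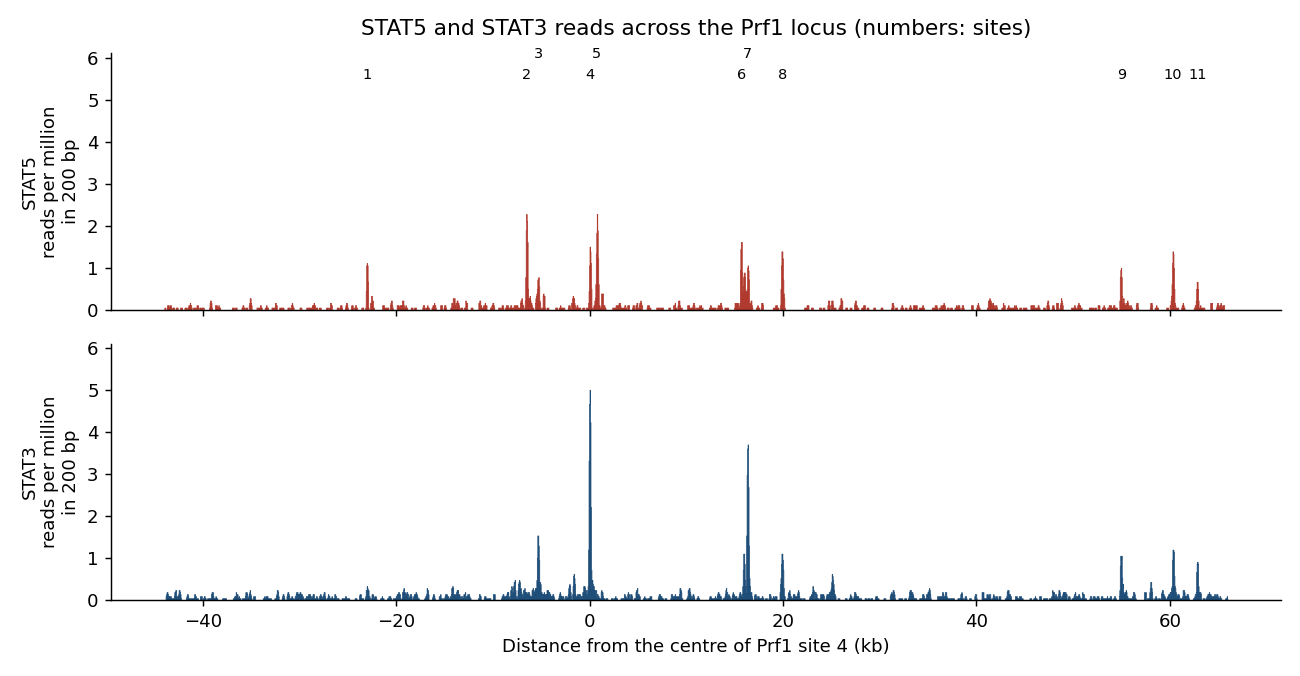
STAT5 (above) and STAT3 (below) RPM in 200 bp windows across the 110 kb Prf1 locus, against the distance in kb from the centre of site 4; numbers mark the 11 sites. The tallest STAT5 sites, 2 and 5, reach 2.28 RPM, and the 2 tallest STAT3 sites, 4 and 7, reach 5.00 and 3.70 RPM.

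Site 4, chr10:60743901-60744300, reached the highest level of the Prf1 locus, with STAT3. It had 27 STAT5 reads (1.5 RPM, interval 0.991 to 2.19) and 104 STAT3 reads (5.00 RPM, 4.09 to 6.06), a ratio of 0.300 (0.189 to 0.462). It had more STAT3 reads than 86.3% of STAT3 regions and more STAT5 reads than 34.4% of STAT5 regions. Both libraries had a region here, with their tallest windows at the same place.

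Site 5, chr10:60744651-60745050, lay 750 bp further on and was a region with STAT5 only. It had 41 STAT5 reads (2.28 RPM, 1.64 to 3.10) and 3 STAT3 reads (0.144 RPM, 0.0298 to 0.422), a ratio of 15.8 (5.04 to 79.8). The STAT3 mean outside the sites of the locus was 1.65 reads per 200 bp. The neighbours thus differed in opposite directions, STAT3 over STAT5 at site 4 and STAT5 over STAT3 at site 5, and the intervals of their ratios did not overlap.

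A second pair of the same kind lay 14950 bp beyond. Site 6, chr10:60759601-60759900, had 29 STAT5 reads (1.61 RPM, 1.08 to 2.32) and 2 STAT3 reads (0.0962 RPM), a ratio of 16.8 (4.24 to 145), and was a region with STAT5 only. Site 7, chr10:60760201-60760650, lay 650 bp further and had 19 STAT5 reads (1.06 RPM, 0.637 to 1.65) and 77 STAT3 reads (3.70 RPM, 2.92 to 4.63), a ratio of 0.285 (0.163 to 0.476). The order of the pair was the reverse of the first, with the STAT5 site at the lower position.

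Between sites 6 and 7 both libraries had a low common maximum that was not called as a region, with 14 STAT5 and 23 STAT3 reads from 60759901 to 60760100. The close spacing bears on the counts: in 400 bp, which takes in part of this maximum, the ratio at site 6 was 3.93 (1.90 to 8.93) and no longer wholly beyond 2-fold. With reads moved by 75 bp instead of 50 bp, the ratio at site 7 was 0.309 (0.178 to 0.511), just short of the limit. The direction at both sites was the same under all alternatives tried.

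**Figure D4:**
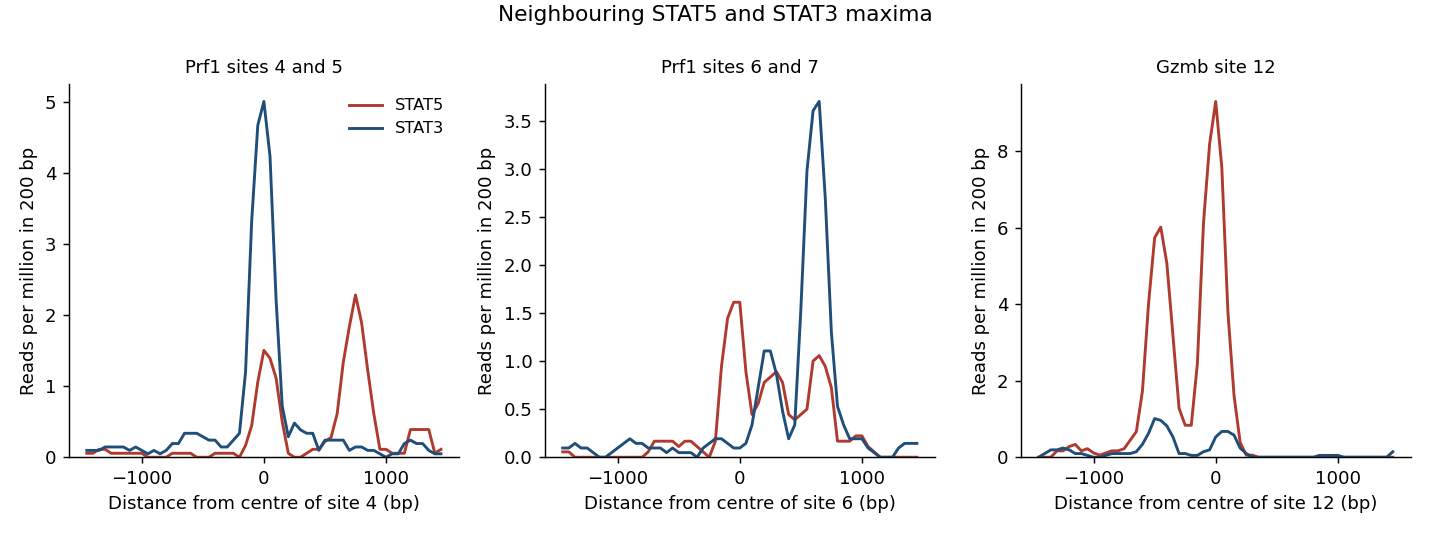
STAT5 and STAT3 RPM in 200 bp windows within 1500 bp of Prf1 site 4 (left), Prf1 site 6 (middle) and Gzmb site 12 (right). At Prf1 the STAT5 maxima of sites 5 and 6, at 2.28 and 1.61 RPM, stand 750 and 650 bp from the STAT3 maxima of sites 4 and 7, at 5.00 and 3.70 RPM, and at Gzmb site 12 a pair of STAT5 maxima stands over low STAT3 signal.

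Such pairs were uncommon. Both STAT3-higher sites of the Prf1 locus had a STAT5-higher site with its centre within 1 kb, against 82 (2.99%) of the 2739 STAT3-higher sites genome-wide. Of the 3 STAT5-higher sites of the Prf1 locus 2 had a STAT3-higher site that near, against 0.348% of 23870 genome-wide. The measure was chosen after the pairs were seen, so the genome-wide shares describe how often they occur and test nothing.

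The next sites before them leaned in opposite directions as well. Site 2, chr10:60737401-60737750, had 41 STAT5 reads (2.28 RPM, 1.64 to 3.10) and 4 STAT3 reads (0.192 RPM), a ratio of 11.9 (4.30 to 45.6). Site 3, chr10:60738551-60738950, 1.2 kb further, was a region with STAT3 only and had 13 STAT5 and 32 STAT3 reads (0.724 and 1.54 RPM), a ratio of 0.470 (0.226 to 0.921). Its interval did not lie wholly beyond 2-fold, and under the background scaling (0.65, 0.313 to 1.27) it included 1. Against the genome-wide mean alone, without the local means, site 3 was a region with STAT5 as well (14 reads). Sites 2 and 5, with 41 STAT5 reads each, were the tallest of the locus with STAT5, above 52.6% of all STAT5 regions.

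Sites 2 to 8 lay within 26.5 kb, and site 9 followed after a further 35.1 kb. Site 8, chr10:60763801-60764150, had 25 STAT5 and 23 STAT3 reads (1.39 and 1.11 RPM), a ratio of 1.26 (0.685 to 2.32). Site 10, chr10:60804251-60804600, had 25 reads in each library, a ratio of 1.16 (0.638 to 2.10). Site 9, chr10:60798851-60799200, had 14 STAT5 and 22 STAT3 reads, and site 11, chr10:60806801-60807100, had 12 and 19. The intervals of these 4 sites included 1.

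Site 1, chr10:60720901-60721200, stood alone 16500 bp before site 2. It was a region with STAT5 only and had 20 STAT5 and 7 STAT3 reads (1.11 and 0.337 RPM). Its ratio of 3.31 (1.34 to 9.25) was above 1 but not wholly beyond 2-fold.

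Set side by side, the loci shared sites with STAT5 and few STAT3 reads, and differed in height. STAT5-higher sites had 18 to 168 STAT5 reads and 2 to 11 STAT3 reads in the Gzmb locus, and 29 to 41 STAT5 and 2 to 4 STAT3 reads in the Prf1 locus. Over the sites, the median was 67 STAT5 and 34 STAT3 reads in the Gzmb locus and 25 STAT5 and 22 STAT3 reads in the Prf1 locus, against 31 and 25 over all sites of the genome. The median ratio over sites was 1.37 in the Gzmb locus, 1.16 in the Prf1 locus and 1.35 genome-wide. Sites within a locus share their surroundings and are not replicates, so no test was made between the loci.

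Between the sites the Gzmb locus had more reads of either library than the genome outside its regions. In the Gzmb locus 6.76 STAT5 and 8.63 STAT3 reads per kb fell outside sites, against 4.71 and 6.78 genome-wide, and in the Prf1 locus 4.69 STAT5 and 8.24 STAT3 reads per kb. Windows of 200 bp with 10 or more reads were also taken outside the sites, tallest first and without overlap. They numbered 16 for STAT5 and 16 for STAT3 in the Gzmb locus, with at most 28 STAT5 and 33 STAT3 reads. Some lie on the flank of a taller window, so these are not counts of separate maxima. In the Prf1 locus there were 1 for STAT5 and 5 for STAT3, with at most 16 and 23 reads. The tallest of them in the Gzmb locus lay beside site 7, from 56915051 to 56915250 for STAT5 (28 reads) and from 56916051 to 56916250 for STAT3 (33 reads).

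**Figure D5:**
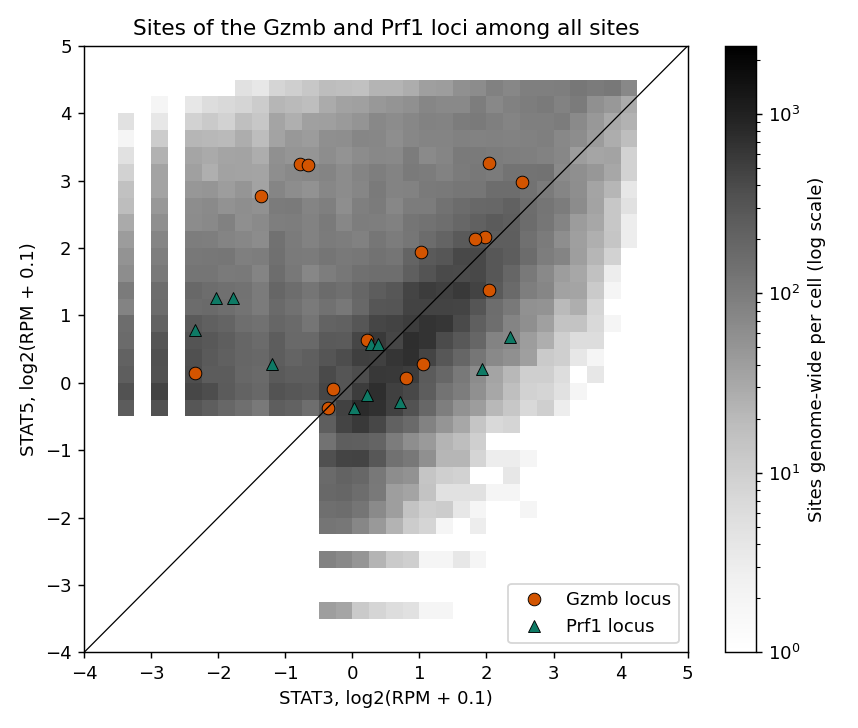
STAT5 against STAT3 level, as log2(RPM + 0.1) in 200 bp, at the 15 Gzmb sites (circles) and 11 Prf1 sites (triangles) over the density of all 86148 sites (grey, log scale), with the line of equal level. The Gzmb sites 3, 11 and 12 sit high on the left with 6 to 11 STAT3 reads, and the Prf1 sites 4 and 7 lie below the line, inside the grey cloud.

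The reads taken at the tallest windows limit some ratios. At Gzmb sites 2, 11 and 12 a STAT5 read was present at 42.5%, 42.0% and 41.8% of the 400 combinations of position and strand, so a count there understates the number of fragments. A correction for positions already taken raised the ratio at Gzmb site 2 to 2.75 (2.11 to 3.62), wholly beyond 2-fold. STAT3 reads took at most 29.5% of the positions at any site centre, and at the Prf1 sites at most 10.3% of the positions were taken by STAT5 and 26.0% by STAT3.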

How the data were processed

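The deposited files list aligned reads, 1 line per read, with no header. The authors' values used here are read positions and strand. Per the submitters' processing notes the genome was mm9. Aligner, settings and filters: not given in the sources used here. Start and end are both counted from 1, and no nuclear read was redundant. All counts were computed here in Python 3.11.15 with pandas 2.3.3, scipy 1.17.1 and numpy 2.4.6, and figures with matplotlib 3.10.9.

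Regions were called over the whole genome with the limits given in the report. The expected count was the highest of 3 means, over 5 kb, over 10 kb and genome-wide, and p was adjusted by the Benjamini-Hochberg method over all windows with a read. Called windows within 100 bp were joined, and regions with over 80% of summit reads on 1 strand were left out. Regions that shared at least 1 bp were merged into sites. Ratios have exact conditional (Clopper-Pearson) intervals, and a site was called when the interval lay wholly beyond 2-fold. The caller and the ratio rule were run on simulated reads of 1 chromosome with even background and isolated sites. That setting differs from these loci, so it does not show how the rules behave at sites close together. The loci, limits and site rules were chosen with earlier results of these data known. Each site of a locus was named, which takes in the planned rule of the 5 tallest per library and the 3 most extreme ratios on each side. Promoters are RefSeq's for GRCm38.p6, and 17 of 18 listed genes had one. Sequence under the sites was not read, since no mm9 genome was used here.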

Additional observations from a re-analysis of the deposited data

How the results depend on the processing

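All alternatives were planned. No paired analysis was possible because each antibody has 1 library. In the Prf1 locus a minimum of 8-fold left 6 STAT5 and 3 STAT3 regions, and STAT3 was higher at 0 sites under the background scaling (10 kb bins that hold no region), which multiplies each STAT5 over STAT3 ratio by 1.38, and at 1 with reads moved by 75 bp. That scaling put the ratio of all reads at 1.99 in the Gzmb locus. In the Prf1 locus it gave 1.023 (0.935 to 1.12), an interval that includes 1, against 0.739 on the main scale. Outside regions the main scale gave 0.906 in the Gzmb locus, reversed in direction from that of all reads, and 0.658 in the Prf1 locus. Gzmb site 2 passed the 2-fold rule under that scaling (3.28, interval 2.51 to 4.32) and the correction for positions taken, and passed a 1.5-fold rule. In all, 126 recalculated site ratios stayed within their intervals and 4 did not: those of Gzmb sites 2, 4 and 7 under that scaling (4 and 7 at 1.58 and 1.9), and that of Prf1 site 6 in 400 bp. Beyond what each rule fixes, the cause was not tested. Low counts, down to 2 STAT3 reads, limit the ratios at Gzmb site 14 and Prf1 sites 5 and 6.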
